A study of Mus musculus with 5 samples.

Results

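The Rab GTPase genes are the 59 protein-coding genes of the RefSeq GRCm38 gene table whose symbol is Rab followed by a digit and then only digits or the letters a to d. The rule uses names alone, but it was set with earlier results of these data known. It was applied to the 21631 protein-coding genes that lie on chromosomes 1 to 19 or X, and the members were compared with the other 21572. The measurement is ChIP-seq of PU.1, the ETS-family transcription factor encoded by Spi1, with the T-21 antibody, in AML246, a p53-/- acute myeloid leukaemia with a hairpin against PU.1 (shPU.1). In the PU.1 high group, C57BL/6 recipient mice with leukaemia were given doxycycline for 2 days, which shuts off the GFP-linked hairpin and lets endogenous PU.1 return (3 libraries). In the PU.1 low group, such mice were left untreated, so that the hairpin stayed on (2 libraries). Both groups share the loss of p53, the hairpin construct and the source, spleen cells of the mice. All libraries come from 1 leukaemia and are labelled technical replicates, and separate mice within a group are not stated. Neither the age of the mice nor any sorting of leukaemia cells from host spleen cells is stated in the labels.

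The deposited data are 1 list of 11111 peak summits, called sites below, whose name sets high against low. This is taken to mean gains of PU.1 in the PU.1 high group over the PU.1 low group. Each site has a position and a −log10 score from the peak caller, given by the authors, and 11106 sites lay on chromosomes 1 to 19 and X. Their median score was 8.56, with quartiles of 5.78 and 11.9. The score says how surely a site stands out and is not a fold change. The list has no value per library, so depth is unknown, and neither the spread of libraries nor a difference between treated and untreated mice could be tested. Intervals below are 95% Wilson intervals and cover counting error only.

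Rab proteins are small GTPases that give membranes their identity. A Rab is loaded with GTP by an exchange factor (GEF), then recruits effectors that tether, move or fuse vesicles, and is switched off by a GTPase-activating protein (GAP). Carrier proteins called GDI and REP shuttle the prenylated Rab through the cytosol. In phagocytes, Rab proteins order the maturation of the phagosome, from Rab5 on early to Rab7 on late compartments, and the release of granules through Rab27a.

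Few Rab genes had a site next to a gene end, and most had one within 50 kb. At no distance did the Rab share differ from that of the other genes by more than its counting error. Within 1 kb of either gene end, 3 of the 59 Rab genes had a site (5.08%, interval 1.74 to 13.9), against 6.41% of the other protein-coding genes. Within 10 kb, 19 of 59 had one (32.2%, interval 21.7 to 44.9), against 22.3%. Within 50 kb, 35 of 59 had one (59.3%, interval 46.6 to 70.9), against 49.5%. All 3 intervals include the share of the other genes. The last member inside and the first outside each distance were Rab5b at 0.408 kb and Rab37 at 1.05 kb, Rab7 at 9.85 kb and Rab15 at 10.04 kb, and Rab25 at 46.6 kb and Rab4a at 50.9 kb. The nearest site lay a median of 23.4 kb from a gene end for Rab genes (quartiles 6.46 and 96.0 kb). For the other genes it was 51.2 kb (quartiles 12.2 and 178 kb). The 2 spreads overlap widely, and the difference was not tested.

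**Figure D1:**
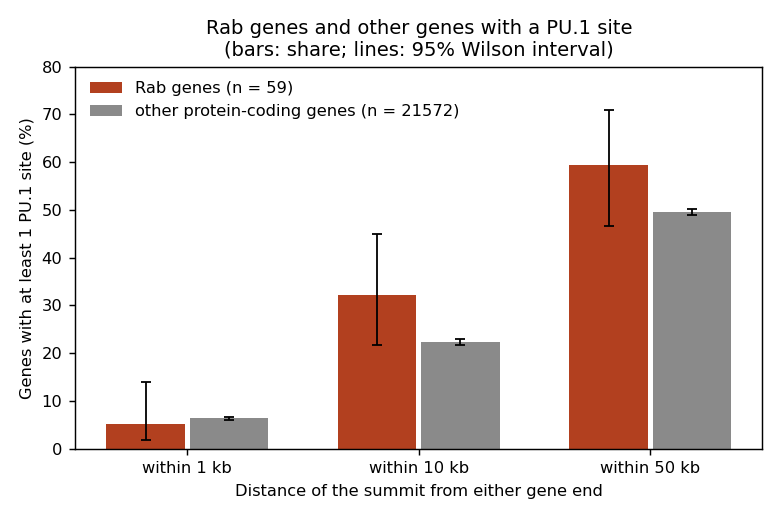
Share of genes (vertical axis, percent) with at least 1 PU.1 site within 1, 10 and 50 kb of either gene end, for the 59 Rab genes and the 21572 other protein-coding genes. Bars are shares and lines are 95% Wilson intervals. At 10 kb the Rab bar stands at 32.2% and the other bar at 22.3%, inside the Rab interval.

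Rab genes are longer than most, with a median length of 23.2 kb against 17.3 kb for the other genes, and have a median of 2 coding genes within 50 kb against 3. Longer genes carried sites more often over most of the range. If the Rab genes had the shares of the other genes in their own quartile class of gene length, 24.8% of them would have a site within 10 kb. With quartile classes of the number of coding genes within 50 kb, that share would be 22.5%. Within each of the 4 length classes the Rab share was the higher one, from 2 of 6 genes against 13.3% in the shortest class to 4 of 14 against 24.5% in the longest. From the shortest to the longest, these classes held only 6, 13, 26 and 14 Rab genes. Differences within a class, or from the shares given by the classes, were not tested.

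The sites at Rab genes were of middling score. The 24 sites within 10 kb of a Rab gene had a median score of 7.93, and the 4498 sites within 10 kb of other genes 8.35. Of the 24, 1 (4.17%, interval 0.739 to 20.2) was in the top quartile class of all sites by score, against 22.8% of the sites near other genes. The second class held 10 of the 24 (41.7%), against 24.1%. These class shares concern sites within 10 kb only, and their differences were not tested. Within 50 kb, the highest score per gene had a median of 9.75 over 35 Rab genes and 10.3 over the other genes with a site. The highest score per gene had a median of 8.19 over the 19 Rab genes with a site within 10 kb, and of 8.81 over the other genes with one. With sites of score 5 or more, 16 Rab genes (27.1%) had one within 10 kb, against 18.7% of the other genes. With sites of score 10 or more, 4 had one (6.78%), against 9.09%, so the direction of the difference turned. At least 2 sites within 10 kb were found at 5 Rab genes (8.47%), against 5.41% of the other genes, and no Rab gene had more than 2.

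**Figure D2:**
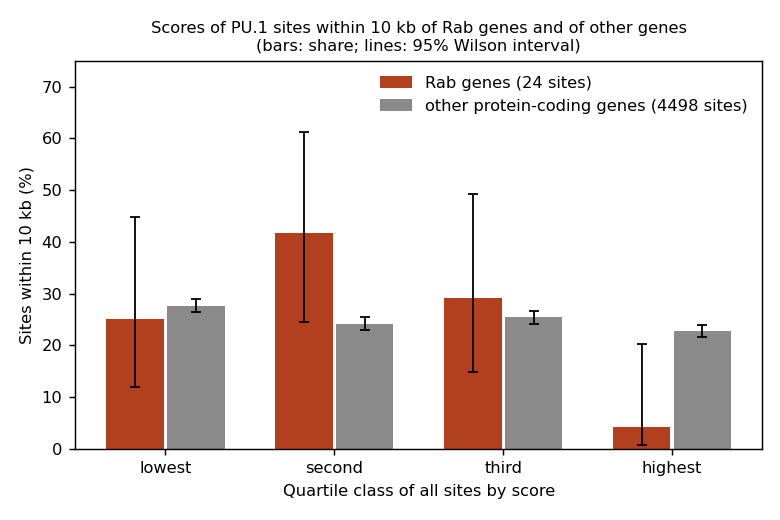
Sites near gene ends, at most 10 kb away, as a share (vertical axis, percent) in each quartile class of all sites by score, for 24 sites at Rab genes and 4498 at other protein-coding genes. Bars are shares and lines are 95% Wilson intervals. The Rab bar stands at 41.7% in the second class and at 4.17% in the highest.

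The RefSeq promoter table, which covers 250 bases before to 50 after a start of transcription, had entries for 48 of the 59 Rab genes. Of these, 0 had a summit inside the window, which allows a share of up to 6.25% (3 counts of 48) or 7.41% as the Wilson bound, against 3.04% of the 17226 other genes with an entry. The 11 Rab genes without an entry could not be counted here. Among them is Rab30, whose summit 0.187 kb from a gene end was the closest of all Rab genes. A summit within 1 kb of such a start was found at Rab5b (424 bases before the start), Rab43 (445 after) and Rab21 (942 after). These starts are those of the promoter table, which at Rab43 and Rab21 lie inside the gene span. Elsewhere the start and end of a gene are the outer ends of its span in the gene table. The windows (RefSeq, GRCm38.p6) are shown because these starts lie closest to a called site, and the summits are 174, 396 and 893 bases outside the windows. Those of Rab32 and Rab2b are shown because they are the windows of Rab genes in which GAGGAA and AGGAAGT, a pair of motifs around the ETS core of PU.1, overlap on 1 strand. Both motifs were searched on both strands, and capitals mark every match, which reads TTCCTC or ACTTCCT when it is on the other strand.
Rab5b promoter window, chr10:128696219-128696518, minus strand: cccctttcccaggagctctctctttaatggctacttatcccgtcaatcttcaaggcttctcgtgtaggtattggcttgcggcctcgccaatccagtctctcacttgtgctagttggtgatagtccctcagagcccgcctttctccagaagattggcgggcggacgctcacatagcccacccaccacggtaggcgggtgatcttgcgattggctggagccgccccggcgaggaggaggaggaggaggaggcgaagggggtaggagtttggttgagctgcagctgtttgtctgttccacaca
Rab43 promoter window, chr6:87809708-87810007, minus strand: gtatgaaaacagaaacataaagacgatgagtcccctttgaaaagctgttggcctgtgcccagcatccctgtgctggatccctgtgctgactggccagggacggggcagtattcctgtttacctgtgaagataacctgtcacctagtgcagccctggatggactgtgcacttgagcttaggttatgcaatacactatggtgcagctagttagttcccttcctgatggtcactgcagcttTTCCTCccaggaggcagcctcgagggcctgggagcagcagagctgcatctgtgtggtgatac
Rab21 promoter window, chr10:115315542-115315841, minus strand: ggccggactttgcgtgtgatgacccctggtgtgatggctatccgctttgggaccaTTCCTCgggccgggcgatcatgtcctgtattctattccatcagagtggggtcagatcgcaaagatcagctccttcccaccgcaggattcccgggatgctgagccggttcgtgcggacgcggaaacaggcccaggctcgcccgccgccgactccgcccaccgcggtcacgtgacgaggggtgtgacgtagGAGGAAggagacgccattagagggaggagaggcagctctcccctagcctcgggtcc
Rab32 promoter window, chr10:10558158-10558457, minus strand: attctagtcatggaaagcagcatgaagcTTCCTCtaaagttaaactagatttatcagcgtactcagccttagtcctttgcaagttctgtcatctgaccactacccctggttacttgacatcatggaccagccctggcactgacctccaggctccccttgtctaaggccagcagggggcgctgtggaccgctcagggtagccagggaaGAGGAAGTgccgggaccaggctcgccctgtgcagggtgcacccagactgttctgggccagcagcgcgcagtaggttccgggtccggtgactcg
Rab2b promoter window, chr14:52279346-52279645, minus strand: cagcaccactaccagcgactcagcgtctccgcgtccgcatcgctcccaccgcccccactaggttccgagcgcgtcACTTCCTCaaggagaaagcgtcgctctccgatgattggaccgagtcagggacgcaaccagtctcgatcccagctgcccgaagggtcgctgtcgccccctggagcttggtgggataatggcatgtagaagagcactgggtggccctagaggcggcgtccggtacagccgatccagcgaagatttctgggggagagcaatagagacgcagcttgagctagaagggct

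The Rab5b window, the one nearest to a summit, holds neither motif, whereas that of Rab43 has 1 match to GAGGAA and that of Rab21 has 2. In the Rab32 window the overlapping match starts 43 bases before the start of transcription. The Rab32 summit lies 2.18 kb after that start, while the nearest site to Rab2b is 141 kb away. Among the 60 windows of Rab genes, GAGGAA was present in 11 (18.3%), against 27.2% of all 21045 windows of protein-coding genes. AGGAAGT was present in 6 (10%), against 9.10%.

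Of the 6 genes of early endosomal Rab proteins, 2 had a site within 10 kb (33.3%, interval 9.68 to 70.0) and 4 within 50 kb. The share within 10 kb was 22.3% for protein-coding genes other than Rab genes. Rab5b (chromosome 10, 128677170 to 128696284), 1 of 3 genes for Rab5, the organiser of early endosome fusion, had a site of score 9.07 at 128696692, 0.408 kb outside the start of the gene. The same position lies inside Pmel, a melanosome matrix gene whose end is farther from it than that of Rab5b, and Cdk2 also ends within 10 kb. Its paralogue Rab5a had a low-scoring site, 4.62, at 15.8 kb before its start and 0.117 kb from Efhb. Rab5c had none within 50 kb, and its nearest site was 95.9 kb away. The 3 Rab5 genes thus differed in this list, with a site next to the gene at Rab5b alone. Rab21 (chromosome 10, 115289862 to 115317419), a Rab of integrin uptake, had a site of 10.8 at 115314649, inside the gene and 2.77 kb from the outer start of its span, and no other coding gene ended within 10 kb of it. Sites of 5.64 and 4.23 lay 18.0 kb beyond its end and 25.8 kb before its start. Rab31, which acts between the Golgi and endosomes, had 1 site of 9.42 deep in its 121 kb span, 45.8 kb from the start. Rab22a, a Rab of early and recycling endosomes, had none within 50 kb.

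Of the 9 genes of recycling Rab proteins, 1 had a site within 10 kb (11.1%, interval 1.99 to 43.5) and 5 within 50 kb. Rab14 (chromosome 2, 35180205 to 35201120), which acts between the Golgi, endosomes and phagosomes, had a site of 11.8 at 35209455, 8.34 kb before its start, the only summit of the pair that was nearest to Rab14. The other, with 7.51, lay at 35174243, 5.96 kb beyond its end and inside the centriolar gene Cntrl. Sites of 5.97 and 6.51 lay 17.4 kb beyond its end and 39.6 kb before its start. Rab11a and Rab11b, the Rabs of the slow recycling endosome, had sites at 12.2 and 11.7 kb. At Rab11a the highest of 3 scores, 16.6, belonged to a site 18.8 kb beyond its end, inside Megf11. At Rab11b the site of 7.59 was 2.76 kb from Angptl4, and one of 12.7 was 40.1 kb away inside Marchf2. Rab15 had its nearest site at 10.04 kb with a score of 6.98, and Rab25, an epithelial relative of Rab11, a site of 10.8 at 46.6 kb. Rab4a and Rab4b, the Rabs of fast recycling, had none within 50 kb, nor had Rab17 and Rab35.

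Genes of late endosomes, lysosomes, phagosomes and autophagy had the highest share of the 7 role groups, with a site within 10 kb at 5 of 8 genes and within 50 kb at 6. The interval of the first share, 62.5%, runs from 30.6 to 86.3. It includes the 32.2% of all Rab genes and lies above the 22.3% of the other protein-coding genes. This group was the highest of 7, which were chosen with earlier results of these data known. Its interval therefore cannot show a difference, and none was tested. The intervals of all other role groups at 10 kb include the 22.3%. At Rab7b and Rab9 the only site within 10 kb was nearer to another gene. Rab24 (chromosome 13, 55319223 to 55321980), a Rab of autophagy and the shortest Rab gene at 2.76 kb, had the highest-scoring site of all Rab genes within 10 kb. Its score was 12.3, and its summit at 55318826 lay 0.397 kb beyond the end of the gene. Nsd1, Prelid1 and Mxd3 also ended within 10 kb, but Rab24 was the nearest. Rab7 (chromosome 6, 87999106 to 88045270), which drives the fusion of late endosomes with lysosomes, had 2 sites inside the gene, of 5.91 at 9.85 kb from its end and 5.78 at 14.6 kb from its start. Both scores were near the lower quartile of all sites. A further site of 3.73 lay 29.9 kb before its start.

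Rab7b (chromosome 1, 131688681 to 131715443), which carries cargo from endosomes to the Golgi and limits Toll-like receptor signalling, had a site of 7.9997 at 131679753, 8.93 kb beyond its lower end, the end with the lower coordinate. That site was nearer to Ctse, the cathepsin E gene, at 4.25 kb. A site of 20.4 at 17.3 kb from Rab7b lay inside Ctse, and sites of 7.07 and 5.78, at 44.4 and 46.2 kb beyond its upper end, lay inside Slc26a9. Rab36 (chromosome 10, 75036895 to 75054748), a Rab of lysosome positioning, had a site of 7.07 at 75041056, inside the gene and 4.16 kb from its lower end. Another of 8.64 lay at 75059496, 4.75 kb beyond its upper end and 1.06 kb from Bcr. Rab9, a Rab of transport from late endosomes to the Golgi, had a low score of 3.71 at 3.51 kb beyond its end, and this site was only 0.597 kb from Trappc2, a gene of the TRAPP vesicle tethering complex. Its paralogue Rab9b, also on chromosome X, was the Rab gene farthest from any site, at 2259 kb. Rab20, a phagosome Rab, had 1 site of 8.72 at 41.5 kb, inside the collagen gene Col4a2. Rab34 had none within 50 kb.

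Of the 3 genes of lysosome-related organelles, 1 had a site within 10 kb or 50 kb (33.3%, interval 6.15 to 79.2). Rab32 (chromosome 10, 10545039 to 10558207), which with Rab38 builds melanosomes and related organelles, had 1 site of 9.75 at 10556031, inside the gene and 2.18 kb from its start. No other coding gene ended within 10 kb of it. Rab38 and Rab29, a Rab that binds the kinase Lrrk2, had none within 50 kb, with nearest sites at 111 and 106 kb. The nearest site to Rab29 is also within 50 kb of Rab7b, its neighbour on chromosome 1.

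**Figure D3:**
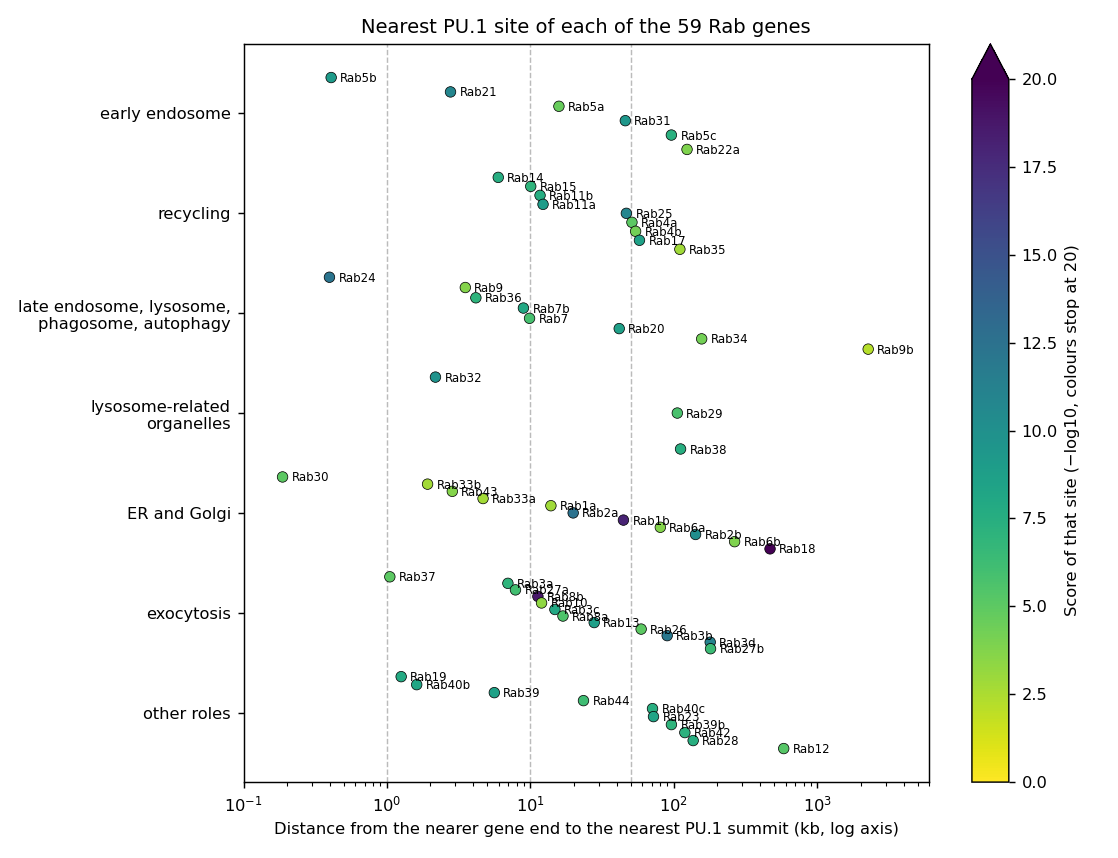
Distance from the nearer gene end to the nearest PU.1 summit (horizontal log axis, kb) for each of the 59 Rab genes, in rows by role. Colour gives the −log10 score of that site and dashed lines mark 1, 10 and 50 kb. Rab30, Rab24 and Rab5b lie left of 1 kb, and Rab9b lies farthest right at 2259 kb.

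Of 11 genes of the endoplasmic reticulum and Golgi, 4 had a site within 10 kb (36.4%, interval 15.2 to 64.6) and 7 within 50 kb. The highest scores of the 4 ran from 2.76 to 8.19. Rab30 (chromosome 7, 92741637 to 92844535), a Golgi Rab, had the Rab site closest to a gene end, 0.187 kb beyond its lower end at 92741450, with a score of 5.02. A site of 13.7 at 34.3 kb beyond its upper end lay inside Prcp. Rab43, which acts between endoplasmic reticulum and Golgi, had 2 sites inside the gene. Rab43 spans 87788853 to 87812164 on chromosome 6, and the sites scored 8.19 at 87807181 and 3.74 at 87809312, or 4.98 and 2.85 kb from the outer start of the span. From the nearest start of the promoter table they were 2.58 and 0.445 kb away. Rab33a and Rab33b, paralogues of the Golgi of which Rab33b also serves autophagosomes, both had a site of 2.76. At Rab33a, on chromosome X, it lay inside the gene, 4.67 kb from its end, and at Rab33b 1.92 kb before the start. The equal scores are no special feature, since 39 sites have that value and the 11106 sites have only 1330 different scores.

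Rab1a and Rab1b, which carry cargo out of the endoplasmic reticulum, had no site within 10 kb. Rab1a had scores of 2.82 and 4.25 at 13.9 and 42.2 kb, and Rab1b a score of 18.1 at 44.4 kb, inside Pacs1. Rab2a, a Golgi Rab, had a site of 12.5 at 19.8 kb beyond its lower end, for which Rab2a was the nearest coding gene. Its paralogue Rab2b had none within 50 kb. The retrograde Golgi Rabs Rab6a and Rab6b and the lipid droplet Rab Rab18 had none within 50 kb either.

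Of 12 genes of exocytosis, 3 had a site within 10 kb and 8 within 50 kb. Rab27a (chromosome 9, 73044810 to 73097623), which docks cytotoxic and neutrophil granules, had 2 sites inside the gene, of 6.03 at 7.86 kb and 7.41 at 11.6 kb from its end. No other coding gene ended within 10 kb of either. Its paralogue Rab27b had none within 50 kb. Rab37, a secretory granule Rab, had 6 sites within 50 kb, the most of any Rab gene, and 3 of them were inside the gene. The one within 10 kb had a score of 5.02 at 1.05 kb from the upper end and was nearest to Rab37. The higher scores of 16.0, 13.8 and 10.8 lay inside Cd300e or Cd300lf, genes of activating and inhibitory myeloid receptors, of which Cd300lf overlaps Rab37.

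The synaptic vesicle Rab gene Rab3a (chromosome 8, 70754703 to 70758608) had a site of 6.98 at 70765568 and one of 10.04 at 70768437, or 6.96 and 9.83 kb beyond its end. These were inside Ifi30, the gene of a lysosomal reductase of antigen processing, and Pik3r2, a phosphoinositide kinase subunit gene, so neither was nearest to Rab3a. Sites of 13.0 and 5.73 lay 34.5 and 34.8 kb before its start, inside Gm3336. Rab3c had 3 sites beyond its end, of 7.9997, 8.40 and 18.5 at 14.8, 19.1 and 35.6 kb, all nearest to Rab3c, and another of 6.03 deep in the gene, 95.8 kb from its start. Rab3b and Rab3d had none within 50 kb. Rab8a and Rab8b, Rabs of transport to the cell surface, had their nearest sites at 16.8 and 11.3 kb. That of Rab8a had a score of 5.60 and lay inside Hsh2d. That of Rab8b had 18.7 and lay inside Aph1c, a gamma-secretase gene, 2.36 kb from an end of that gene. A site of 4.74 at 12.5 kb from Rab8b also lay inside Aph1c. Another, of 7.51, lay inside Rab8b, 32.7 kb from its start, and was nearest to Rab8b. Rab10, which also serves transport to the surface, had 1 site of 3.33 at 11.9 kb. Rab13, a Rab of cell junctions, had 4 sites at 27.8 to 40.1 kb, with a highest score of 20.4. Of the 4, 3 were nearest to Dennd4b, which encodes a Rab exchange factor, and the other to Crtc2. Rab26 had none within 50 kb.

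Of 10 Rab genes of other roles, 3 had a site within 10 kb (30.0%, interval 10.8 to 60.3) and 4 within 50 kb. Rab19 (chromosome 6, 39380709 to 39390666) had a site of 7.86 at 39379454 and one of 9.94 at 39372380, or 1.26 and 8.33 kb before its start, of which the second lay inside Slc37a3. Rab39 (chromosome 9, 53684110 to 53706232), a Rab of phagosomes, had a site of 8.56 at 53700635, inside the gene and 5.60 kb from its start. A site of 25.7, the highest score within 50 kb of any Rab gene, lay 34.9 kb before its start, and no coding gene ended within 10 kb of it. Its paralogue Rab39b, a neuronal Rab gene on chromosome X, had none within 50 kb. Rab40b (chromosome 11, 121356121 to 121388251), an adaptor of a cullin ubiquitin ligase, had a site of 8.18 at 121354511, 1.61 kb beyond its end, which was 0.064 kb from the autophagy gene Wdr45b. Rab40c had none within 50 kb. Rab44, a large Rab of immune cell granules, had a site of 6.22 at 23.4 kb, 0.258 kb from Cdkn1a. Rab12, Rab23, Rab28 and Rab42 had none within 50 kb.

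**Figure D4:**
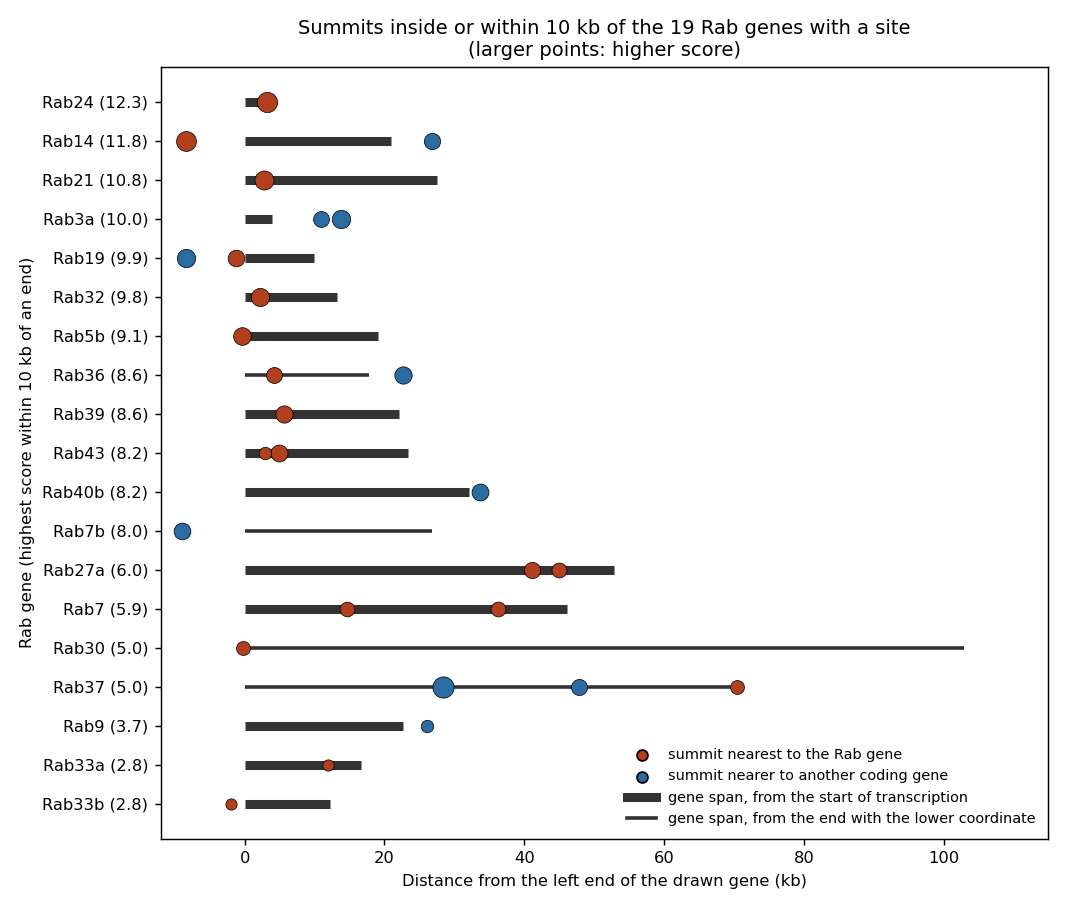
Summits inside or within 10 kb of the 19 Rab genes with a site within 10 kb of an end, ordered by their highest score, which stands beside each name. The horizontal axis is the distance in kb from the left end of the drawn gene. Bars are gene spans, thick where the direction of transcription is known, and points are summits, red where the Rab gene is the nearest coding gene. Rab24, Rab14, Rab21 and Rab3a lead with scores from 12.3 to 10.04.

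Of 14 groups of Rab genes with the same number, 31 genes in all, every member had a site within 10 kb in 2 groups (Rab7 and Rab33), some members had one in 6 and 0 members in the remaining 6. On chromosome X, 2 of the 4 Rab genes had a site within 10 kb, against 8.21% of the 962 other genes there. These sites had low scores, 2.76 at Rab33a and 3.71 at Rab9, and that of Rab9 was nearer to Trappc2. On the autosomes, 17 of 55 Rab genes had a site within 10 kb (30.9%), against 23.0% of the other genes. Neither difference was tested, and 4 genes are too few to compare.

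The Rab gene was the nearest coding gene for 16 of its 24 sites within 10 kb (66.7%, interval 46.7 to 82.03), against 70.4% of the pairs of sites and other genes at this distance. Within 50 kb this held for 27 of 72 (37.5%), against 39.5%. Inside the Rab gene were 10 of the 24 (41.7%), against 38.0%. A site is assigned by distance alone, and 8 of the 24 sites were nearer to another gene. With direction known, 10 of 19 sites within 10 kb of a Rab gene were on the side of its start (52.6%), against 62.1% for other genes.

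Genes that act on or with Rab proteins carried sites as well. These lists, and those of the other small GTPase families below, were written with earlier results of these data known. Their shares were not compared within classes of gene length, and differences from other genes were not tested. Of 35 exchange factor genes, 15 had a site within 10 kb (42.9%, interval 27.98 to 59.1), against 22.3% of the protein-coding genes other than Rab genes. The highest scores were at Dennd4b (20.4, inside the gene), Dennd1a (18.5, 3.06 kb before its start) and Dennd1c (16.8, 0.026 kb before its start), all genes of DENN-domain exchange factors. Of 36 GAP genes, 14 had a site (38.9%, interval 24.8 to 55.1). They were led by Sgsm3 (21.4), whose site inside the gene was nearest to Mrtfa, and by Tbc1d2b (14.8) and Tbc1d10b (13.2). Of 7 genes of GDI, REP, prenylation and related chaperones, 2 had one (28.6%, interval 8.22 to 64.1). These were Rabif (14.4, 0.066 kb beyond its end), which keeps nucleotide-free Rab proteins stable, and the prenylation gene Rabggta (12.5).

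Of 50 effector genes, 14 had a site (28.0%, interval 17.5 to 41.7). Rabep2, an effector of Rab5, had a site of 25.6 at 3.90 kb before its start. Osbpl1a, a sterol sensor on Rab7 membranes, had one of 22.4, and Rab11fip5, which links Rab11 to motors, one of 19.2, but these were nearest to Cabyr and Sfxn5. The highest Rab gene score within 10 kb, 12.3, was below the leading score of each of these lists.

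Of the other small GTPase families, a site lay within 10 kb of 13 of 28 Arf genes (46.4%, interval 29.5 to 64.2) and 8 of 26 Ras genes (30.8%, interval 16.5 to 49.99). Their highest scores were at Arl10 (20.8), Arl4a (17.7) and Arl9 (13.0), and at Rap1a (16.7), Rem1 (12.1) and Rheb (10.3). The sites of Rap1a and Rem1 were nearest to Inka2 and Defb25. The intervals of both families overlap that of the Rab genes, and the differences between families were not tested.

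**Figure D5:**
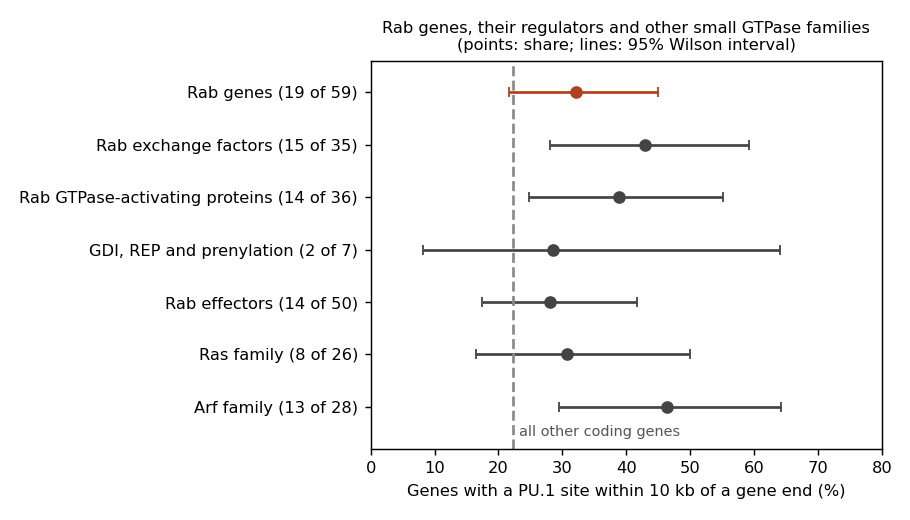
Share of genes with a PU.1 site within 10 kb of a gene end (horizontal axis, percent) for Rab genes, genes that act on or with Rab proteins and other small GTPase families. Points are shares and lines are 95% Wilson intervals, and the dashed line marks the 22.3% of all protein-coding genes other than Rab genes. The Rab interval starts at 21.7%, just left of that line.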

How the data were processed

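PU.1 ChIP-seq libraries of 2 groups (3 PU.1 high, 2 PU.1 low) are represented by 1 deposited list of summits. CASAVA 1.8.2, MACS2 and the build mm10 are named, per the submitters' processing notes. The deposited value of each summit is a −log10 score of the peak caller, and the labels do not say whether it comes from p-values or q-values. The aligner, filters, control, settings and use of technical replicates were not given in the sources used here.

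Positions are 1-based on mm10, whose chromosome coordinates are those of GRCm38. Summits and protein-coding genes of RefSeq GRCm38.p6 on chromosomes 1 to 19 and X were joined by distance to the nearer gene end (Python 3.11.15, pandas 2.3.3, scipy 1.17.1). Direction came from the RefSeq promoter table, with entries for 48 of 59 Rab genes. The join was tested on simulated data. No enrichment test was run. The members, role groups and 6 gene lists were chosen with earlier results of these data known, the lists from textbook knowledge. Every Rab gene is named. Coordinates, with the position, distance and score of each site within 10 kb, are given for those with a site within 1 kb. The same holds for the 12 with the highest score within 10 kb. Outside this rule, coordinates are also given for Rab7 and Rab27a, and distances or scores of sites for some other members. For each list, the 3 genes of highest score are named. Of the planned lists, 1 gene and 1 family are not reported here. The promoter windows shown, and other genes named beside a site, were chosen after their values were seen. The alternatives changed the minimum score, window, assignment, chromosomes, merging of sites, gene end and counting of paralogues.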

Additional observations from a re-analysis of the deposited data

How the results depend on the processing

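Of 61 recomputed values under the alternatives, 47 stayed within 1.5 times the reported count or within the counting error of the reported value, 10 moved and 4 turned in direction. Merging sites closer than 500 bases removed only 130 of the 11106 sites and left all Rab counts as reported, so its values could hardly move. The counting error is wide, and the 47 include differences that shrank several-fold. The difference within 10 kb was 3.26 points with transcription starts only, over 48 of the 59 Rab genes and 17226 other genes. At a score of at least 10 the difference within 50 kb was 0.95 points, against 9.80 as reported, and that within 1 kb −0.35. The cause of these smaller differences was not tested. A higher minimum score leaves fewer sites. The starts-only setting measures from starts instead of both ends, and it also changes both gene sets. It drops the 11 Rab genes and 4346 other genes that lack a promoter entry. Among the dropped Rab genes, Rab30, Rab36, Rab37 and Rab7b counted at 10 kb in the reported setting. At a score of at least 10, Rab genes with a site numbered 1 within 1 kb, 4 within 10 kb and 16 within 50 kb, the difference from the other genes within 10 kb turned to −2.31 percentage points from 9.86, and the median highest score was 11.3. With gene spans plus the window, 15 Rab genes had a site at 1 kb, and the difference turned to 5.99 points from −1.33. It also turned at 1 kb with a score of at least 5 (0.16 points) and with transcription starts only (0.22 points). With starts only, 10 of 48 Rab genes had a site within 10 kb, and the Rab gene was nearest for 91.7% of its sites. When a site counted for its nearest gene end alone, 21 Rab genes had one within 50 kb. The Rab gene was nearest for 100% of its sites within 1 kb and 37.5% within 50 kb. Giving each site to its nearest gene leaves this last share without a value. No paired analysis was possible because the list gives no value for any replicate, so none could be left out either.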
